A study of Mus musculus with 6 samples.

Results

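The transcripts described here are those of 8 genes for small proteins of leukocytes, 7 S100 calcium-binding proteins (S100a3, S100a4, S100a6, S100a10, S100a11, S100a13 and S100a16) and the LIM-domain protein Crip1. All probe sets that the array annotation gives to a single gene of this list were taken. They were 10 of 45101 probe sets on the array and read 7 of the 8 genes, with 3 probe sets for S100a10, 2 for S100a16 and 1 for each of the others. The probe set of S100a11 is annotated to 3 genes, so S100a11 is not analysed here. The members were chosen by gene family after the intensity differences between the same CTLA-4 KO and wild type arrays were known. Their differences between genotypes are therefore given as a description, without p-values. Statements that a member passed a threshold are description as well.

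Gene expression was measured in 3 arrays of CTLA-4 KO and 3 arrays of wild type T cells. All donors carried the 5C.C7 receptor and the CD45.1 marker and were RAG2-/-, wild type donors included, and the CTLA-4 KO donors were CTLA-4-/- in addition. 5C.C7 is a transgenic T cell receptor specific for moth cytochrome c (MCC), and without RAG2 the donors make no other receptor. In each genotype the T cells were transferred into B10.A mice, the recipients were immunized with MCC peptide and LPS, and the cells were sorted after 4 days. The labels name no genetic change in the recipients, so lymphocytes of the recipients may have been present. The titles call the arrays biological replicates but do not say whether they came from separate animals, so the spread may be partly technical. The ages of the animals and the organ and gate of the sort are not given in the labels.

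S100 proteins are small EF-hand proteins that work mostly as dimers and bind target proteins, many of them when calcium rises. S100A10 is the exception, since it does not bind calcium and sits in a complex with annexin A2 at the plasma membrane. S100A4 binds non-muscle myosin IIA, S100A6 binds the calcyclin-binding protein, and CRIP1 is a short protein with a single zinc-binding LIM domain. In mouse T cells S100a4, S100a6, S100a10 and Crip1 are known as transcripts of effector and memory cells that are low in naive cells. Most S100 genes lie side by side on mouse chromosome 3, while Crip1 lies on chromosome 12.

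The arrays were checked first. Ctla4, the targeted gene, had intensities of 812, 791 and 784 in CTLA-4 KO and 5332, 4787 and 4587 in wild type, so the genotypes did not overlap (log2 difference −2.60 ± 0.10, SE, limma adjusted p = 1.45e-06, exact two-sided permutation test p = 0.1, the smallest that 20 arrangements allow). It has a single probe set, whose place relative to the deletion was not examined. The T cell markers Cd3d, Cd3e and Cd4 had mean intensities of 8241, 4410 and 5473 in CTLA-4 KO and 8436, 3907 and 5148 in wild type, so defining T cell transcripts were present on all arrays. Array 2 of each genotype had high Xist, at 12599 in CTLA-4 KO and 14608 in wild type, against at most 107 in the other arrays, so array 2 of each genotype read as female and the others as male. The 5' to 3' signal ratio of Actb, a sign of RNA integrity, was 0.567, 0.691 and 0.544 in CTLA-4 KO and 0.418, 0.41 and 0.584 in wild type. That of Gapdh was 0.109, 0.205 and 0.178 in CTLA-4 KO and 0.103, 0.0955 and 0.25 in wild type.

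S100a4, S100a6 and Crip1 were higher in every CTLA-4 KO array than in any wild type array, by a little over 2-fold each. Among the other members, so were a probe set each of S100a10 and S100a16, but other probe sets of these genes were not, and S100a13 and S100a3 overlapped between genotypes. Values are MAS5 intensities, scaled by the authors so that the arrays share a trimmed mean of 500.003. A log2 difference is positive where CTLA-4 KO was higher, is taken on the log2(intensity + 16) scale and carries the SE of a limma fit across 27022 probe sets. Levels of different probe sets are not compared, since each binds its transcript differently. In bulk samples, fewer cells that express a gene and less RNA per cell cannot be told apart.

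The windows just before the starts of the genes with non-overlapping arrays are shown because these transcripts were higher in the same arrays. They are the 250 bases before the RefSeq start on GRCm38.p6, plus strand, at chr3:90603520-90603769 for S100a4, chr3:90612644-90612893 for S100a6 and chr12:113151762-113152011 for Crip1. Capitals mark motif matches on either strand, which may overlap. The TATA box was searched as TATAAA. The AP-1 motif was searched as TGANTCA. The GC box was searched as GGGCGG.
S100a4: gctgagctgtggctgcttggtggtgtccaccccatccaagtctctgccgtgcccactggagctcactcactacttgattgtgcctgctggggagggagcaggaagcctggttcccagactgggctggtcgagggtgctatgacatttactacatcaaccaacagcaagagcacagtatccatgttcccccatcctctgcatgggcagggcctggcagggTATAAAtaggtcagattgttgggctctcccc
S100a6: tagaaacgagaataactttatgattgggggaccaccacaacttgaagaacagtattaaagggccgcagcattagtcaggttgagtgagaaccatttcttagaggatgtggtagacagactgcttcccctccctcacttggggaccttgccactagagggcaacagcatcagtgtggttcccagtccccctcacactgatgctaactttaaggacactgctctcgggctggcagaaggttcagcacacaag
Crip1: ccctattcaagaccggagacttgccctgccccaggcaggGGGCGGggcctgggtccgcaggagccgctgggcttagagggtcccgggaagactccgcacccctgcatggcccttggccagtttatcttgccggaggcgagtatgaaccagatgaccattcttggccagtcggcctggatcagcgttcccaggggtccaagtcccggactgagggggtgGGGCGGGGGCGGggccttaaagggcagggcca
S100a4 holds TATAAA, which starts 31 bases before the gene start, and no match to the other motifs. S100a6 holds none of these letters in its window. Crip1 holds GGGCGG 3 times, starting 211, 32 and 26 bases before the start. So no searched motif was shared by these windows. Of all 32851 promoter windows of the same length, 12.4% hold the TATA box letters, 6.75% the AP-1 letters and 32.7% the GC box letters. The GC content was 57.2% for S100a4, 50% for S100a6 and 67.2% for Crip1.

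S100a4 encodes a protein that binds myosin IIA and is linked to cell motility. Its probe set, 1424542_at, had intensities of 5368, 9686 and 8172 in CTLA-4 KO arrays 1, 2 and 3 and of 2143, 4198 and 4185 in wild type arrays 1, 2 and 3. The lowest CTLA-4 KO array stood above the highest wild type array, and array 1 was the lowest in each genotype. The mean was 7742 ± 2191 in CTLA-4 KO and 3509 ± 1183 in wild type (SD, n = 3), with a log2 difference of 1.16 ± 0.27, or 2.24-fold. The difference within the replicate pairs was 1.32, 1.20 and 0.96, an SD of 0.18, while the SD between arrays of a genotype was 0.44 in CTLA-4 KO and 0.56 in wild type on the log2 scale. The spread within genotypes was thus mostly shared by arrays of the same number.

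S100a6, or calcyclin, is known from proliferating cells. Its probe set, 1421375_a_at, had 6028, 7312 and 6301 in CTLA-4 KO and 2027, 3714 and 2490 in wild type. The genotypes did not overlap, and array 2 was the highest in each. The mean was 6547 ± 676 in CTLA-4 KO and 2744 ± 872 in wild type (SD, n = 3), with a log2 difference of 1.29 ± 0.19, or 2.45-fold. The 3 pairs gave 1.56, 0.97 and 1.33. This was the 40th highest difference among 11989 tested genes, where S100a4 was the 65th and Crip1 the 80th.

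Crip1, cysteine-rich protein 1, was read by 1416326_at. It had 5671, 7271 and 6451 in CTLA-4 KO and 2596, 3164 and 3414 in wild type, again without overlap and with array 1 lowest in each genotype. The mean was 6464 ± 800 in CTLA-4 KO and 3058 ± 419 in wild type (SD, n = 3), with a log2 difference of 1.08 ± 0.13, or 2.11-fold. The pairs gave 1.12, 1.20 and 0.91, an SD of 0.15, against 0.30 for S100a6.

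**Figure D1:**
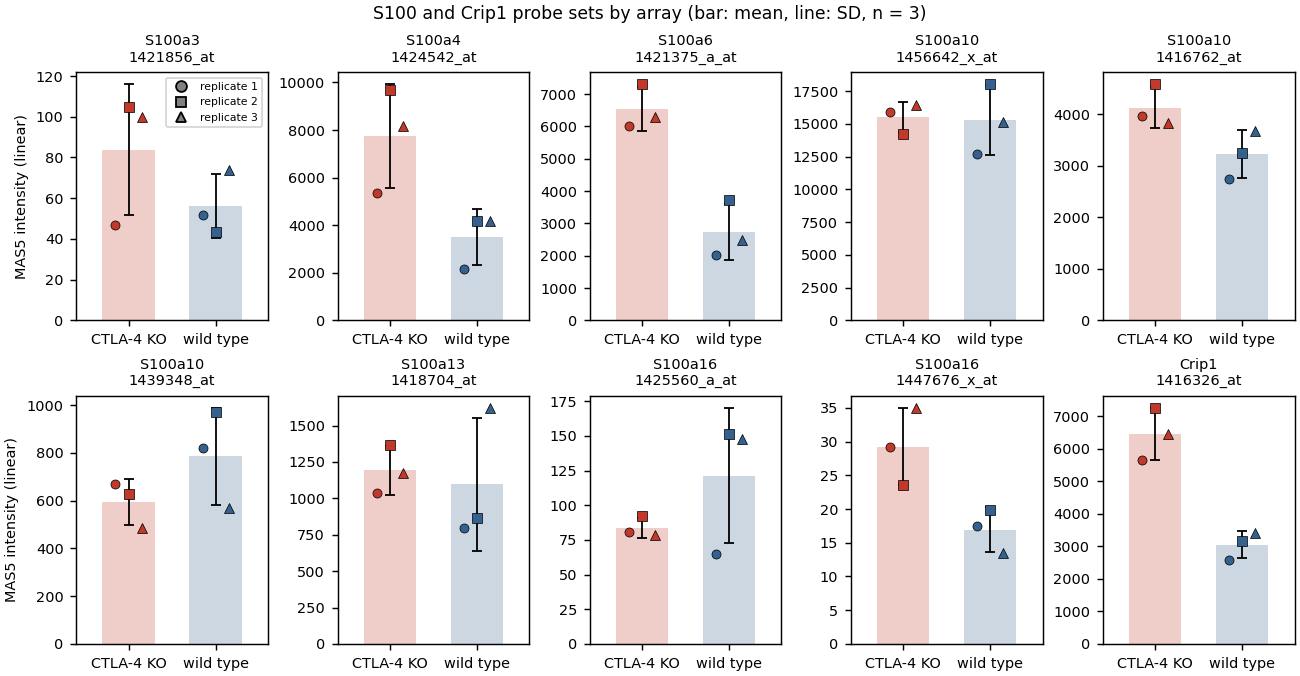
MAS5 intensity (linear axis from 0, own scale per panel) of the 10 probe sets in 3 CTLA-4 KO arrays (left, red) and 3 wild type arrays (right, blue). Bars are means, lines SD, and marker shapes the replicate number. S100a4, S100a6, Crip1, probe set 1416762_at of S100a10 and probe set 1447676_x_at of S100a16 have all CTLA-4 KO arrays above all wild type arrays.

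S100a10, the annexin A2 partner, was read by 3 probe sets that disagreed. The brightest, 1456642_x_at, had 15923, 14206 and 16445 in CTLA-4 KO and 12708, 18045 and 15143 in wild type, which overlap (log2 difference 0.03 ± 0.12). Probe set 1416762_at had 3965, 4583 and 3829 in CTLA-4 KO and 2750, 3249 and 3670 in wild type, all CTLA-4 KO arrays above all wild type arrays (0.36 ± 0.12), and passed the threshold only with the replicate block. Probe set 1439348_at had 671, 627 and 484 in CTLA-4 KO and 819, 972 and 569 in wild type, which overlap in the opposite order of means (−0.38 ± 0.20). No direction can therefore be given for S100a10. Probe sets ending in _x_at can bind related transcripts as well.

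S100a13, which takes part in the release of growth factors and interleukin-1 alpha that lack a signal peptide, had 1035, 1369 and 1172 in CTLA-4 KO and 800, 868 and 1623 in wild type. The genotypes overlapped, because wild type array 3 was the highest of all, and the log2 difference was 0.18 ± 0.23, which turned to −0.40 with the Actb ratio as a term and −0.049 in male arrays. It was 0.37 and 0.65 in pairs 1 and 2 and −0.46 in pair 3.

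S100a3 and S100a16 were dim. S100a3, best known from the hair cuticle, had 46.9, 105 and 100 in CTLA-4 KO and 51.5, 43.4 and 73.7 in wild type (0.43 ± 0.31), where CTLA-4 KO array 1 lay among the wild type arrays. S100a16, a broadly expressed family member, had 80.6, 92 and 78.4 in CTLA-4 KO and 64.9, 152 and 148 in wild type with probe set 1425560_a_at (−0.39 ± 0.29), which overlap. Its other probe set, 1447676_x_at, had 29.2, 23.6 and 35 in CTLA-4 KO and 17.5, 19.9 and 13.4 in wild type, under the floor of 35.4 for testing. The 2 probe sets of S100a16 thus pointed in opposite directions at low signal.

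By the limma fit, S100a6 and Crip1 were past the adjusted p threshold of 0.05, 2 of the 7 genes, while 1.69% of all tested genes were past it in either direction. S100a4 was past it as well when replicate number was a block (SE 0.09), which made 3 of 7, against 8.96% of all tested genes (5.49% higher and 3.47% lower). Arrays of the genotypes did not overlap for 3 of 7 genes and for 22.8% of all tested genes, and CTLA-4 KO was the higher genotype in 12.2%. The median log2 difference was 0.43 over the 7 genes and 0.0015 over all tested genes. These counts, and the calls of single members here and below, describe genes that were named with this comparison known. Nothing is read from them. Single arrays decided some calls: S100a6 was below the threshold without CTLA-4 KO array 2 (1.21) or wild type array 3 (1.24), S100a4 was past it without CTLA-4 KO array 1 (1.40), and likewise under median centring, array weights or averaged probe sets, and Crip1 was past it whichever array was left out (0.96 to 1.17). In the male arrays alone the log2 differences were 1.14 for S100a4, 1.45 for S100a6 and 1.02 for Crip1, of which S100a6 alone was past the threshold. With the Actb ratio as a term they were 0.78 ± 0.34, 1.31 ± 0.27 and 0.88 ± 0.15 (SE), and none of the 7 genes was past the threshold. The Actb ratio was higher in CTLA-4 KO in pairs 1 and 2, and its part in these differences was not tested beyond that fit.

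**Figure D2:**
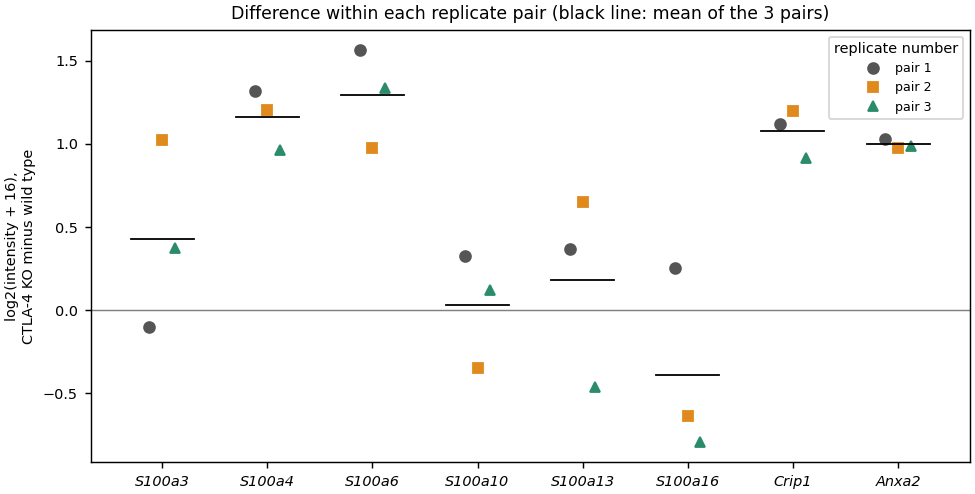
Log2 difference, CTLA-4 KO minus wild type, within each replicate pair (marker shape and colour) for the brightest probe set of each gene and of Anxa2. Black lines are means of the 3 pairs. All pairs of S100a4, S100a6, Crip1 and Anxa2 lie above 0.9, while S100a10, S100a13, S100a3 and S100a16 have pairs on either side of 0.

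The profiles of S100a4, S100a6 and Crip1 over the 6 arrays were also close to each other. Likeness was measured as the root mean square (RMS) difference of log2 values over 6 arrays, each profile centred on its mean. The genotype difference, by which the genes were named, is part of this measure. It was 0.26 between S100a4 and Crip1, 0.24 between S100a6 and Crip1 and 0.29 between S100a4 and S100a6. Among 11293 named genes Crip1 was 11th nearest to S100a4 and 12th nearest to S100a6. S100a10, S100a13, S100a3 and S100a16 were further away, at 0.42 to 0.87 from S100a4, S100a6 and Crip1.

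The genes nearest to S100a4 were Itga7, an integrin subunit for laminin (0.094), Lysmd2 (0.21) and Ikzf3, the transcription factor Aiolos (0.21). Nearest to S100a6 were Popdc2 (0.16), Trat1, an adaptor of the T cell receptor complex (0.16), and Dab2ip, a Ras GTPase-activating protein (0.19). Nearest to Crip1 were Frmd4b (0.042), Osbpl3, an oxysterol-binding protein relative (0.065), and Ica1l (0.09). For the other members they were Zfp942, Zfp830 and Galt for S100a10 (0.052 to 0.056), Ncf1, Wdr53 and Ina for S100a13 (0.096 to 0.098), Trim46, Itgae and Wdr54 for S100a3 (0.12 to 0.14) and Acvrl1, Zfp112 and Mlph for S100a16 (0.11).

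Other S100 genes on the array were low or did not pass the test. Of a list of 10 further S100 genes and S100pbp, 8 were on the array and 5 of these, S100a8, S100a9, S100a14, S100b and S100g, lay under the floor for testing. S100a8 and S100a9, the calprotectin subunits of neutrophils, had at most 50.9 and 6.48 in CTLA-4 KO and at most 40.1 and 3.65 in wild type. Among the 3 tested genes none passed the threshold, and none had an unadjusted p under 0.05 in limma. S100a1 had 89.2, 89.5 and 111 in CTLA-4 KO and 85.9, 49 and 112 in wild type (0.25 ± 0.28, limma adjusted p = 0.719). S100a5 had 35.9, 42.1 and 53.1 in CTLA-4 KO and 34.7, 70 and 34.2 in wild type (−0.02 ± 0.30, limma adjusted p = 0.979). S100pbp, whose protein binds S100P in human cells, had 2319, 1914 and 2035 in CTLA-4 KO and 2536, 2153 and 2142 in wild type (−0.12 ± 0.12, limma adjusted p = 0.661). S100a7l2, an S100 gene of the chromosome 3 stretch outside that list, was also under the floor, at 1.43, 2.29 and 2.17 in CTLA-4 KO and 3.9, 26.4 and 2.14 in wild type. S100a2, S100a7a and S100z are not analysed here.

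Along chromosome 3, S100a4 and S100a6 stand close together with S100a5 as the only protein-coding gene between them, whose difference was −0.02. The stretch from 10 genes before the first S100 gene to 10 after the last holds 90 protein-coding genes, 15 of them S100 genes. S100a10 and S100a11 adjoin each other beyond 56 genes, most of them of the epidermal barrier. Of 83 genes of the stretch other than the members, 25 were tested, and limma called none of them with or without the replicate block. Unadjusted p was under 0.05 for 2, Ilf2, an RNA-binding protein gene (0.35 ± 0.13, limma adjusted p = 0.238), and Lce3b of the cornified envelope (−0.47 ± 0.20, limma adjusted p = 0.276). Their median log2 difference was −0.068, against 0.0015 over all tested genes.

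**Figure D3:**
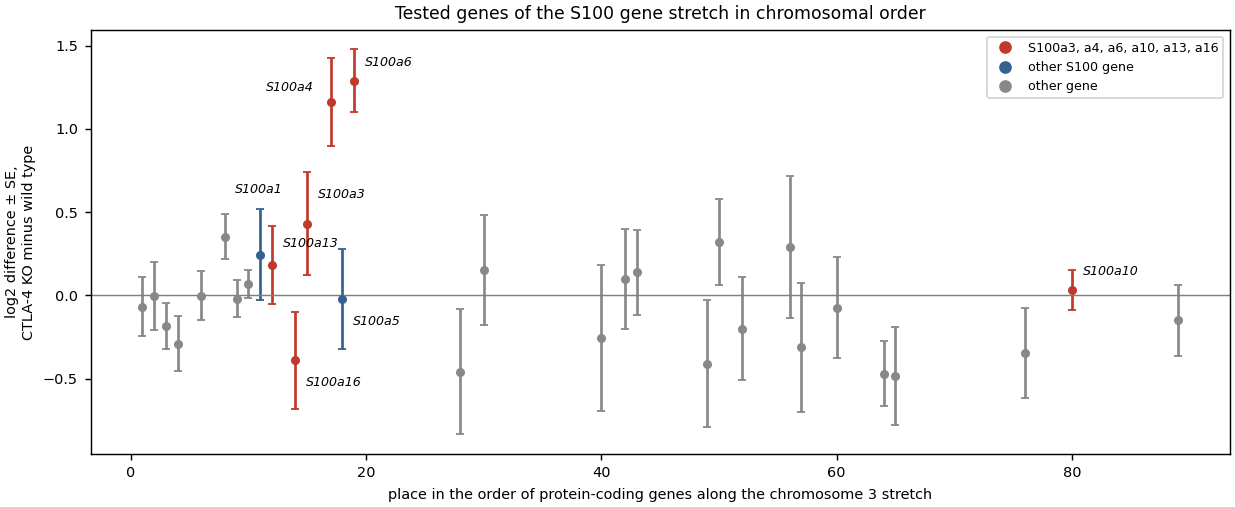
Log2 difference ± SE (limma, 3 arrays per genotype), CTLA-4 KO minus wild type, of the 31 tested genes in their order along the chromosome 3 stretch. Red points are the S100 genes described here, blue points other S100 genes and grey points other genes; S100a4 and S100a6 stand above 1, and all other genes lie between −0.48 and 0.43.

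Genes for the known binding partners and receptors of S100 proteins were compared next, from a list of 26 genes of which 16 were tested. Anxa2, the partner of S100a10, was the only one past the threshold without the block, and was higher in CTLA-4 KO. By the same rule 1.19% of all tested genes were higher and 0.5% were lower. It had 9002, 8385 and 6307 in CTLA-4 KO and 4411, 4263 and 3169 in wild type (0.996 ± 0.157, limma adjusted p = 0.0173), without overlap. Each pair of arrays gave nearly the same difference, 1.03, 0.97 and 0.99. A dim probe set of Anxa2, 1437692_x_at, had a difference of −0.44 ± 0.23 (limma adjusted p = 0.389). The Anxa2 call was lost without CTLA-4 KO array 2 (adjusted p = 0.0986) or wild type array 3 (adjusted p = 0.0548) and with the Actb ratio as a term (1.15 ± 0.21, adjusted p = 0.14), and the mean over its tested probe sets was 0.28 (adjusted p = 0.234).

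Anxa1, which binds S100A11, had 319, 619 and 598 in CTLA-4 KO and 129, 256 and 422 in wild type (0.97 ± 0.37). It overlapped between genotypes and was past the threshold only with the replicate block (adjusted p = 0.236 in limma without the block and 0.00405 with it). The myosin IIA heavy chain gene Myh9, for the S100A4 target, had a difference of 0.06 ± 0.11 (limma adjusted p = 0.831). Cacybp, for the calcyclin-binding protein, had 0.12 ± 0.13 (0.702), and Ahnak, for the scaffold of the S100A10 and annexin A2 complex, had −0.04 ± 0.13 (0.907). Ager, the receptor RAGE for extracellular S100 proteins, was dim, at 53.4, 24.2 and 7.44 in CTLA-4 KO and 108, 23.7 and 83.8 in wild type (−0.97 ± 0.49, 0.372). The median over the 16 genes was 0.14, and 11 had positive differences.

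Genes of other small LIM-domain proteins did not pass in the fit without a block, although 5 of the 8 tested had an unadjusted p under 0.05 in limma, as did 16.6% of all tested genes. Csrp1, for a LIM protein of the actin cytoskeleton, had 322, 373 and 304 in CTLA-4 KO and 39.4, 50.3 and 193 in wild type, without overlap (1.93 ± 0.41, adjusted p = 0.0535 in limma, and 0.00318 when pairs were blocked). Its other probe set, 1425810_a_at, had a difference of 1.17 ± 0.35 (adjusted p = 0.136, and 0.0195 when pairs were blocked). Wild type array 3 was well above the other wild type arrays, and without it the difference was 2.52 (limma adjusted p = 0.00288). Csrp1 did not pass when any other array was left out (limma adjusted p 0.0918 to 0.218). It also did not pass in male arrays (1.61, 0.353) or with the Actb ratio as a term (0.92, 0.434). Fhl2, a LIM-only cofactor, had 862, 1141 and 886 in CTLA-4 KO and 778, 618 and 442 in wild type (0.66 ± 0.20, adjusted p = 0.139 in limma, and 0.0174 when pairs were blocked). Crip2, the nearest relative of Crip1 in this list, had 179, 222 and 156 in CTLA-4 KO and 132, 145 and 129 in wild type (0.40 ± 0.19, limma adjusted p = 0.351). The differences were 1.12 for Csrp2 (adjusted p = 0.244), 0.67 for Lmo4 (0.192), 0.29 for Pdlim1 (0.203), −0.06 for Lmo2 (0.964) and −0.15 for Lims1 (0.49). The list median was 0.53.

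Another list of 22 genes was drawn up as expressed together with S100a4, S100a6 and Crip1 in effector and memory T cells. Some of the genes were seen in earlier results of these data. Of the 22 genes, 4 rose and 1 fell in limma. With the replicate block 9 rose and 1 fell, the additions being Vim, Anxa1, Tagln2, Itgb7 and Klf2. Klf2 is not particular to effector and memory cells. Of all tested genes, 1.19% rose and 0.5% fell without the block, and 5.49% rose and 3.47% fell with it. Because part of the list was picked from these arrays, its counts are no independent evidence of a direction. Lgals1, galectin-1, had 19017, 19516 and 18710 in CTLA-4 KO and 12240, 15203 and 12219 in wild type (0.54 ± 0.10, adjusted p = 0.0298). Its other probe set, 1419573_a_at, gave 0.79 ± 0.11 (0.0126). Emp1, an epithelial membrane protein gene, had 642, 718 and 457 in CTLA-4 KO and 92.1, 256 and 231 in wild type (1.66 ± 0.32, limma adjusted p = 0.0377). A dim probe set of Emp1, 1459171_at, had −0.86 ± 0.35 (0.264), and the mean over its probe sets was 0.40 (0.508). Lgals3 rose by 2.25 ± 0.22 (limma adjusted p = 0.00193), and Anxa2 was the fourth.

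Id2, an inhibitor of E proteins, was the member that fell, with 2765, 3178 and 2342 in CTLA-4 KO and 4301, 6728 and 6438 in wild type (−1.06 ± 0.17, limma adjusted p = 0.0193). Vim, the intermediate filament vimentin, had 17109, 16829 and 15788 in CTLA-4 KO and 12027, 14064 and 11376 in wild type with its brightest probe set (0.41 ± 0.09, adjusted p = 0.0676 in limma, and 0.0142 when pairs were blocked). Its other 2 probe sets passed, at 0.72 ± 0.12 (0.0183) and 0.57 ± 0.11 (0.0347). The list median was 0.22, with 16 of 22 differences positive. Lgals1 was below the threshold when any array but wild type array 2 was left out, Emp1 without any CTLA-4 KO array or wild type array 3, and Id2 without CTLA-4 KO array 3 or wild type array 2 or 3, with adjusted p between 0.0548 and 0.174 for these genes.

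**Figure D4:**
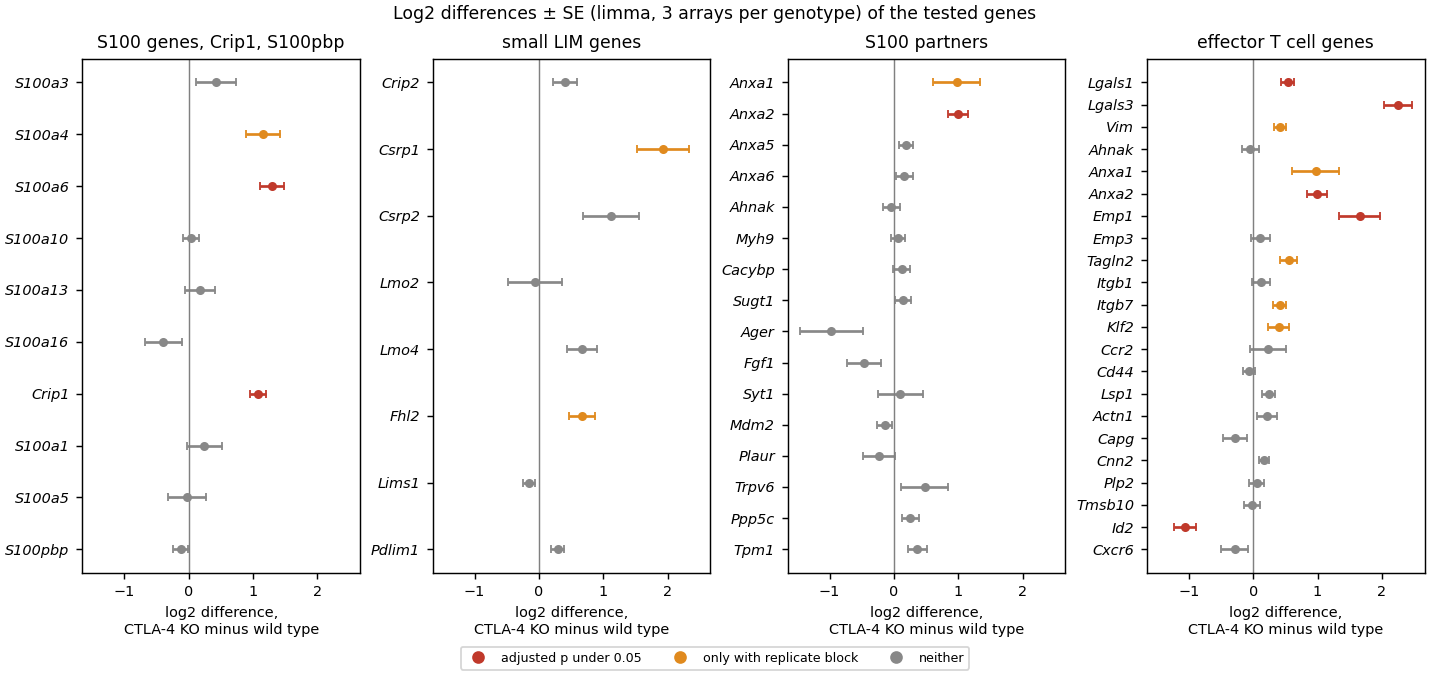
Log2 difference ± SE (limma, 3 arrays per genotype), CTLA-4 KO minus wild type, of tested genes in 4 panels. Red points passed an adjusted p of 0.05, orange points only with the replicate block, grey points neither; S100a6, Crip1, Anxa2, Lgals1, Lgals3 and Emp1 are red on the right of 0 and Id2 is red on the left.

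Markers of cells that a sort of T cells could also hold, from 7 lists, were examined because S100 and Crip1 transcripts occur in many of them. Of 45 genes, 41 were on the array, 18 lay under the floor and 23 were tested. None of the 23 passed in limma with or without the replicate block, and 2 had an unadjusted p under 0.05. These were the macrophage marker Cd68, with 133, 125 and 138 in CTLA-4 KO and 93.3, 98.7 and 57.3 in wild type (0.60 ± 0.23, limma adjusted p = 0.244), and the dendritic cell marker Zbtb46, with 50.4, 62.6 and 56.7 in CTLA-4 KO and 70.8, 93.5 and 106 in wild type (−0.54 ± 0.24, limma adjusted p = 0.309). Cd68 was thus higher in every CTLA-4 KO array than in any wild type array, as were 12.2% of all tested genes. The myeloid list had a median log2 difference of −0.19, with 2 of its 6 tested genes positive. Klrd1 of the NK list also had all CTLA-4 KO arrays above all wild type arrays. In the other direction, Zbtb46 and Itgax of the dendritic list and Col1a2 and Pecam1 of the stromal and epithelial list had all CTLA-4 KO arrays below all wild type arrays. Arrays of the genotypes did not overlap, in either direction, for 22.8% of all tested genes. The median of the NK list was −0.026, with 1 of 3 tested genes positive. The summed intensity of the B cell markers spanned 167 to 306 in CTLA-4 KO and 233 to 440 in wild type, that of the myeloid markers 382 to 720 in CTLA-4 KO and 569 to 599 in wild type, and that of the neutrophil markers 160 to 299 in CTLA-4 KO and 156 to 186 in wild type. For dendritic cells it spanned 158 to 205 in CTLA-4 KO and 208 to 297 in wild type, and for NK cells 620 to 786 in CTLA-4 KO and 331 to 1046 in wild type. For CD8 T cells it spanned 315 to 513 in CTLA-4 KO and 262 to 422 in wild type, and for stromal and epithelial cells 454 to 554 in CTLA-4 KO and 443 to 644 in wild type. Under the floor lay Cd79a, Pax5 and Cr2 of B cells, Itgam, Cd14, Tyrobp and Fcer1g of myeloid cells, S100a8, S100a9, Camp, Ltf and Elane of neutrophils, Flt3 and Xcr1 of dendritic cells, Ncr1 of NK cells, and Col1a1, Col3a1 and Cdh5 of stroma. The summed intensity of the dendritic list was thus lower in every CTLA-4 KO array than in any wild type array, and for the other lists the genotypes overlapped. The part of other cells in the S100 and Crip1 differences was not tested. The T cell list summed to 54835 to 56104 in CTLA-4 KO and 52496 to 61171 in wild type, and none of its 7 tested genes passed without the block, where 1 had an unadjusted p under 0.05, while Cd3g was lower with it.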

How the data were processed

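Sorted T cell RNA, 2 µg per array per the labels, was measured on Affymetrix arrays. For every probe set and array the authors deposited a linear intensity, made with Partek and MAS5 according to the submitters' processing notes. Background correction and probe summary preceded deposit. Background-level values stay noisy under MAS5, and 3 arrays per genotype limit the precision.

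Of 45101 probe sets, 64 AFFX controls were left out and 27022 were kept whose mean log2(intensity + 16) reached the 40th percentile (an intensity of 35.4). The annotation gave 1 gene for 34958 probe sets, several for 932 and none for 9211, and symbols were updated through gene IDs (34754 matched GRCm38.p6). Each gene was represented by its brightest probe set. limma 3.58.1 in R 4.3.3 was run with an intensity trend and no block, with Benjamini-Hochberg adjustment over all kept probe sets, and was tested on simulated data. The numbers in the titles were taken to pair the arrays, which the titles do not state. Deviations from the genotype mean correlated at 0.371, 0.24 and 0.254 between arrays of the same number. These values cannot decide the pairing, since deviations within a genotype cancel out and arrays of different numbers were not compared. The female arrays also share a number, and the part of sex in these correlations was not tested.

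The members and lists were chosen with earlier results of these data known. All 7 measured members, Ctla4, all tested genes of the S100 and LIM lists, Anxa2, Ahnak, Anxa1, Cacybp, Myh9, Lgals1, Vim, Ager, other genes past the threshold in the lists, and the 3 nearest profiles of each member are named by rule. Markers and Ilf2, Lce3b and the genes set under the floor are named beside their counts.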

Additional observations from a re-analysis of the deposited data

How the results depend on the processing

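The arrays limit these results to differences of bright transcripts, and dim ones such as S100a3 and S100a16 lie near background. Ctla4 kept its direction and its call in all 20 alternatives (−2.64 to −2.51). None of the tested S100 relatives, chromosome 3 neighbours or other cell markers passed in any alternative. The 339 probe sets past the threshold became 111 with no filter on dim probe sets, 20 without the intensity trend, 521 with array weights, 2341 with the replicate block, 22 with the Actb ratio as a term, 46 in male arrays, 45 at a threshold of 0.01, and 62 to 217 when an array was left out; it was not compared with probe sets averaged. The members past the threshold, 2 in the fit reported, were 0 without the trend and with the Actb term, 1 in male arrays and at 0.01, and 1 to 3 when an array was left out. They were 3, with S100a4 added, under median centring, array weights, probe sets averaged and the replicate block. S100 partners, 1 in the fit reported, were 0 with no filter, without the trend, with the Actb term, in male arrays, with probe sets of a gene averaged and at 0.01, 2 with the block, and 0 to 1 when an array was left out. LIM genes, 0 in the fit reported, were 1 with a pseudocount of 64, a filter at the 60th percentile, median centring, quantile normalization, array weights or the mean of probe sets, 2 with the block, and 0 to 1 when an array was left out. The effector list, 5 in the fit reported, had 1 with no filter, without the trend and at 0.01, 10 with the block, 0 with the Actb term, 2 in male arrays, and 1 to 5 when an array was left out. Under median centring, where the median of all tested probe sets was 0.048 in place of −0.041, 81.5% of calls were higher, against 62.5% in the fit reported. With the replicate block the share was 44.6% (1044 probe sets higher and 1297 lower), and with the Actb term 40.9%. In both, most calls of probe sets were thus lower. Counted by gene, with the brightest probe set of each, 658 were higher and 416 lower with the block.

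Differences that changed sign belonged to genes that were not past the threshold, and the cause was not tested. With the Actb term S100a13 had −0.40 (0.18 in the fit reported), S100a1 −0.052, S100a5 0.23 and Cacybp −0.017. Under median centring S100a5 had 0.065, Lmo2 0.033 and Ahnak 0.045. With quantile normalization S100a10 had −0.054 (0.03 in the fit reported), S100a5 had 0.076, Lmo2 0.031 and Myh9 −0.00085. In male arrays S100a13 had −0.049, S100a5 0.25 and Lmo2 0.12, with array weights S100a10 had −0.014, Lmo2 0.015 and Ahnak 0.019, and with the mean of probe sets Ahnak had 0.22. When an array was left out, S100a10 spanned −0.093 to 0.16, S100a13 −0.0037 to 0.50, S100a1 −0.026 to 0.46, S100a5 −0.16 to 0.23, Lmo2 −0.48 to 0.39, Ahnak −0.19 to 0.046 and Myh9 −0.014 to 0.17. Of the nearest profiles, Itga7, Lysmd2, Dab2ip and Ica1l were past the threshold only with the block. Their limma adjusted p was 0.0738, 0.212, 0.0837 and 0.0505 without the block and 0.00225, 0.00897, 0.0118 and 0.00677 with it. Apart from these and the calls given beside the results, the block changed no call of a named gene.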
